A study of Mus musculus with 6 samples.

Results

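The genes described here are the classical oncofetal and progenitor markers of liver cancer, namely Afp, Gpc3, H19, Igf2, Dlk1, Epcam, Krt19, Sox9 and Cd24a, with Alb added as the reference for mature hepatocytes. The rule that selects them uses gene symbols alone, although the list was drawn up with earlier results of these data known. All 10 were found among the 34685 genes of the deposited size-factor table and the 55536 genes of the raw count table. Of the 10, 8 had enough counts to be among the 15374 genes tested, and Igf2 and Dlk1 did not.

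RNA of orthotopic liver tumors was sequenced in 6 libraries, from male C3H mice (C3H/HeNCrNarl in the study's methods) that were 6 to 8 weeks old at implantation and were given 1000000 HCA-1 cells, a murine hepatocellular carcinoma (HCC) line, under the liver capsule. The control group was untreated and holds the libraries labelled Control_5, Control_6 and Control_7, while the treated group holds GOX_DOX_1, GOX_DOX_2 and GOX_DOX_5, from mice given nanoparticles that carry glucose oxidase (GOX) and doxorubicin (DOX) intravenously on days 18, 19 and 20. By the labels the transcriptome was read on day 17, with 3 h of circulation, which conflicts with those dosing days. Tumor cells and host liver are both mouse, so reads of implanted cells, hepatocytes, bile duct, vessel and blood cells enter the same counts, and the control mice received no empty nanoparticle, so that carrier and cargo cannot be told apart.

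During development, the fetal liver makes alpha-fetoprotein and imprinted growth regulators in quantity, and their genes are shut down as hepatocytes mature and albumin becomes the dominant secreted protein. In hepatocellular carcinoma, some tumors switch fetal genes such as Afp and Gpc3 back on, and others carry keratin 19, EpCAM or SOX9, which in the healthy liver mark bile duct and progenitor cells. These markers are used to describe how far a liver tumor lies from a mature hepatocyte.

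The control libraries did not form a group. Alb held 0.0437% of all counts in control 5 (95% Wilson interval 0.0427 to 0.0447%), 5.58% in control 6 (5.57 to 5.59%) and 7.28% in control 7 (7.27 to 7.29%), against 0.0888 to 0.234% in the GOX_DOX tumors. The mean log2 CPM (counts scaled to library size and edgeR's TMM factors) of the 19 other mature hepatocyte genes was 3.19, 10.92 and 11.64 across controls 5, 6 and 7, against 5.71, 4.46 and 4.81 in GOX_DOX tumors 1, 2 and 5. The order of the 6 libraries was the same as that of Alb, with control 5 at the bottom. Library totals lay between 15529940 and 18401178 counts, and TMM factors between 0.569 (control 7) and 1.24 (control 5). Because of this split, fold changes of the markers are given with all libraries, without control 5, and without controls 6 and 7. In bulk RNA, fewer hepatocytes and less hepatocyte RNA per cell cannot be told apart. Intervals and floors cover counting error only, and a floor of 3 counts corresponded to 0.132 to 0.323 CPM.

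Alb and Afp are neighbours of the albumin gene family on chromosome 5 of GRCm38, where the end of Alb and the start of Afp lie 14134 bases apart. Both promoters are known to bind hepatocyte factors of the HNF1 family, and both genes had their highest levels in controls 6 and 7, so the 250 bases before their RefSeq starts (build GRCm38.p6, plus strand, 5′ to 3′) are shown. Of the 10 genes, 6 had an entry in the set of RefSeq promoters used here, and H19, Krt19, Sox9 and Cd24a did not. Capitals mark the letters of the HNF1 core GTTAAT, the TATA box TATAAA and the CCAAT box, each searched on both strands, so that ATTGG is CCAAT read on the minus strand.
Alb, chr5:90460620-90460869: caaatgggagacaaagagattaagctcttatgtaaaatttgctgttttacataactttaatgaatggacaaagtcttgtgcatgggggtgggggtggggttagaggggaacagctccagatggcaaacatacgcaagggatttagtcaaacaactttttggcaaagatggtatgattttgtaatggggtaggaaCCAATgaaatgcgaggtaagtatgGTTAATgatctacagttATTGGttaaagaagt
Afp, chr5:90490464-90490713: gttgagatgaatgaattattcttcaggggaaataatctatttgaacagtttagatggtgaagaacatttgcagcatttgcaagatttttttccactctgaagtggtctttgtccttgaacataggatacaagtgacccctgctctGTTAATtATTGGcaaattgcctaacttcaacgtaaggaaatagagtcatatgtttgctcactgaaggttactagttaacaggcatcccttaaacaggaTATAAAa
In Alb the GTTAAT core lay 32 to 27 bases before the start and a CCAAT box on each strand at 56 to 52 and 15 to 11 bases. In Afp the core lay 105 to 100 bases before the start, beside a CCAAT box on the minus strand at 98 to 94 bases, with TATAAA at 7 to 2 bases. None of these matches overlapped another. The RefSeq windows end at 90460869 for Alb and 90490713 for Afp. The gene positions given below start downstream of that, at 90460897 and 90490737. From those starts all matches would lie further upstream, and the bases between were not searched. Of 32536 promoters, 6.47% held GTTAAT in the same window, 12.3% TATAAA and 33.8% CCAAT. A match of letters is a description and not a site.

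Alb (ENSMUSG00000029368, chromosome 5, 90460897 to 90476602, plus strand) encodes serum albumin, the most abundant protein that mature hepatocytes secrete. It measured 353, 73804 and 128244 CPM across controls 5, 6 and 7, against 1893, 733 and 1061 CPM in GOX_DOX tumors 1, 2 and 5. Controls 6 and 7 were far above every other library, and control 5 was below all 3 GOX_DOX tumors, so the groups overlapped. Against control 5, Alb was 209-fold higher in control 6 and 364-fold higher in control 7. Controls averaged 67467 ± 64181 CPM (SD, n = 3), against 1229 ± 598 CPM (SD, n = 3) after treatment. Its log2 fold change was -5.78 (standard error 2.20), which is 54.9-fold lower in GOX_DOX tumors, and edgeR's quasi-likelihood test adjusted its p to 0.265. DESeq2 gave -5.80 (standard error 1.38) and an adjusted p of 0.00131, which made Alb the only marker past its threshold, where 10.5% of all genes were called in either direction. Without control 5 it was -6.33 (standard error 0.75). Without controls 6 and 7 the direction turned, and the GOX_DOX tumors were higher than control 5 by 1.82 on the log2 scale (standard error 0.56, edgeR adjusted p 0.885).

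Afp (ENSMUSG00000054932, chromosome 5, 90490737 to 90508907, plus strand) encodes alpha-fetoprotein, the fetal counterpart of albumin and the serum marker of HCC. It measured 4.91, 10.3 and 13.2 CPM across controls 5, 6 and 7, against 4.65, 2.25 and 4.94 CPM in GOX_DOX tumors 1, 2 and 5. Controls 6 and 7 were above every GOX_DOX tumor, and the groups overlapped only because control 5 lay below GOX_DOX tumor 5. The reads behind these values were 112, 121 and 123 in the controls and 94, 46 and 95 in the GOX_DOX tumors, close to each other among the controls, whose TMM factors were 1.24, 0.759 and 0.569. The log2 fold change was -1.26 (standard error 0.50, edgeR adjusted p 0.274), with -1.54 (standard error 0.38) when control 5 was left out and -0.30 (standard error 0.52) when controls 6 and 7 were. With library totals as the scaling it was -0.55 (standard error 0.42), where the median of all tested genes lay at 0.51 in place of 0.02 with TMM. Afp was therefore below the median gene by 1.06 with totals, and by 1.22 with the upper quartile, whose median was 0.19.

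Afp was low in every library when set against albumin. Per kilobase of exon, Alb stood 103-fold above Afp in control 5, 10344-fold in control 6 and 13934-fold in control 7, and between 309-fold and 586-fold above it in the GOX_DOX tumors. Levels per kilobase reached at most 3.93 CPM for Afp. All 4 genes of the locus, Alb and Afp among them, were lower in GOX_DOX tumors, with a median log2 fold change of -5.45, against 0.02 over all genes tested. Afm (afamin, a vitamin E carrier) measured 1.45, 388 and 635 CPM across controls 5, 6 and 7, against 7.71, 2.06 and 4.16 CPM in GOX_DOX tumors 1, 2 and 5. Gc (vitamin D binding protein) measured 65.7, 7579 and 11112 CPM in the controls, against 262, 110 and 169 CPM in the GOX_DOX tumors. Without controls 6 and 7 the median of the locus was 1.58, and all of its 4 genes were past the threshold as lower without control 5, in a fit that called 47.7% of all genes.

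Gpc3 (ENSMUSG00000055653, chromosome X, 52272426 to 52613950, minus strand) encodes glypican 3, a heparan sulfate proteoglycan of fetal liver and a target of HCC therapies. It measured 1.10, 2.29 and 2.15 CPM across controls 5, 6 and 7, against 0.939, 0.784 and 0.884 CPM in GOX_DOX tumors 1, 2 and 5. Every GOX_DOX tumor lay below every control tumor, and Gpc3 was the only one of the markers whose groups did not overlap (p = 0.1 in a two-sided exact permutation test, the lowest that 3 against 3 libraries can reach). Groups without overlap were found in 8.31% of tested genes as lower and in 8.87% as higher in GOX_DOX tumors, so 1 of 8 markers is near this background. The values rest on 25, 27 and 20 reads in the controls and 19, 16 and 17 reads in the GOX_DOX tumors. Its log2 fold change was -1.06 (standard error 0.40, edgeR adjusted p 0.264). With library totals it was -0.43, below the median gene by 0.93, while it was -1.32 (standard error 0.39) without control 5 and -0.32 (standard error 0.58) without controls 6 and 7.

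**Figure D1:**
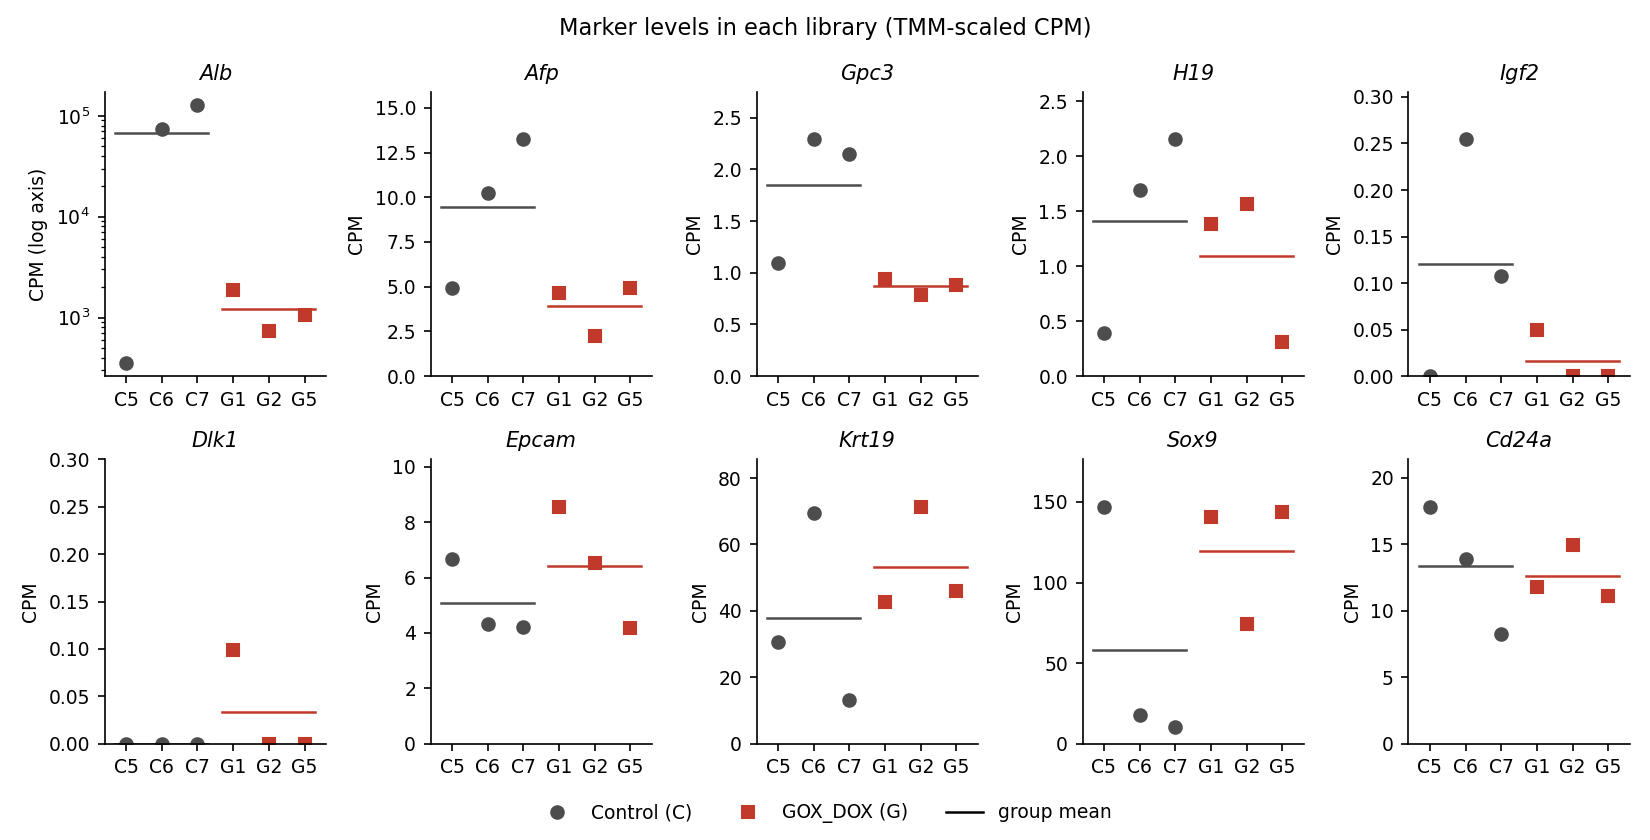
Level of each marker (y axis, TMM-scaled CPM, on a log axis for Alb) in the control libraries 5, 6 and 7 (C, circles) and the GOX_DOX libraries 1, 2 and 5 (G, squares), with the group mean as a line. Alb, Afp, Gpc3 and H19 were highest in controls 6 and 7, Sox9 was lowest there, and Igf2 and Dlk1 were at or below 0.254 CPM in every library.

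H19 (ENSMUSG00000000031, chromosome 7, 142575529 to 142578143, minus strand) is an imprinted noncoding RNA of fetal liver, expressed from the maternal allele. It measured 0.395, 1.70 and 2.15 CPM across controls 5, 6 and 7, against 1.38, 1.57 and 0.312 CPM in GOX_DOX tumors 1, 2 and 5. GOX_DOX tumor 5 was the lowest library and control 5 the next, so the order did not follow treatment. Its log2 fold change was -0.33 (standard error 0.82) with TMM and turned to 0.42 (standard error 0.71) with library totals. It was -0.78 (standard error 0.66) without control 5 and 1.47 (standard error 1.04) without controls 6 and 7. Mir675 and overlapping annotations share 2.96% of the 50-base stretches of its transcripts.

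Igf2 (ENSMUSG00000048583, chromosome 7, 142650766 to 142666816, minus strand), the fetal insulin-like growth factor and the paternally expressed neighbour of H19 at a gap of 72622 bases, was near the limit of detection. It had 0, 3 and 1 reads in controls 5, 6 and 7, and 1, 0 and 0 reads in GOX_DOX tumors 1, 2 and 5. No library was above the floor of 3 counts, and no difference was detectable at this depth. Other annotations, the antisense Igf2os among them, share 62.1% of its stretches of 50 bases, and the use of strand in counting is not given in the sources used here, so even these reads are uncertain.

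Dlk1 (ENSMUSG00000040856, chromosome 12, 109452823 to 109463336, plus strand), a membrane protein of hepatoblasts related to Notch ligands, had 2 reads in GOX_DOX tumor 1 and 0 in the other 5 libraries. A count of 0 allows up to 3 reads, which is up to 0.323 CPM in control 7. Neither of the paternally expressed growth genes was thus measurable in these tumors, whichever the group.

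Part of the 2 imprinted domains could be tested. In the H19-Igf2 domain these were 4 of 6 genes, H19 among them, 2 higher and 2 lower, with a median log2 fold change of 0.18. Cdkn1c, a maternally expressed inhibitor of cyclin-dependent kinases, measured 0.263, 4.50 and 6.24 CPM across controls 5, 6 and 7, against 0.198, 0.784 and 0.416 CPM in GOX_DOX tumors 1, 2 and 5 (log2 fold change -2.93, standard error 1.13). Phlda2, a maternally expressed brake on placental growth, had the opposite sign (1.29, standard error 0.60), and Kcnq1ot1, the long noncoding RNA that silences them in cis, measured 113 CPM in GOX_DOX tumor 5 and 28.9 to 47.2 CPM elsewhere. Igf2os had 2 reads, both in GOX_DOX tumor 2 (0.0980 CPM).

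In the Dlk1-Meg3 domain 2 of 6 genes, Meg3 and Rian, had enough counts to be tested. Meg3, the maternally expressed noncoding RNA 77664 bases beyond Dlk1, measured 8.91, 7.46 and 7.21 CPM in the controls, against 5.78, 14.5 and 4.27 CPM in the GOX_DOX tumors. Rian, a noncoding RNA of the same cluster, had a log2 fold change of 0.47 (standard error 0.63). Both were highest in GOX_DOX tumor 2, where Dio3, the deiodinase gene at the far end, also stood at 3.38 CPM against 0 to 0.351 CPM elsewhere. Rtl1 and Mirg were at or below 0.753 CPM. The wider imprinted growth network had 2 of 12 tested genes higher and 10 lower, with a median of -0.66 that stayed negative at -0.12 with library totals. Its largest differences after Cdkn1c were those of Peg3 (-2.52, standard error 0.78) and Plagl1 (-2.10, standard error 0.76), a pair of paternally expressed zinc finger genes. Without controls 6 and 7 the median of the network was -0.02.

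Of the progenitor and bile duct markers, Sox9 and Krt19 had the highest levels. Sox9 (ENSMUSG00000000567, chromosome 11, 112782224 to 112787760, plus strand) encodes a transcription factor of bile ducts and liver progenitors. It measured 147, 17.6 and 10.4 CPM across controls 5, 6 and 7, against 141, 74.3 and 144 CPM in GOX_DOX tumors 1, 2 and 5. Control 5 was the highest library of all, while controls 6 and 7 were the lowest, 8.37-fold and 14.1-fold below control 5. The log2 fold change was 1.03 (standard error 1.00, edgeR adjusted p 0.568), positive under every scaling, and DESeq2 set both its p and its adjusted p aside as NA. Without control 5 it was 3.12 (standard error 0.39, edgeR adjusted p 0.000804), and without controls 6 and 7 it was -0.28 (standard error 0.37). The sign thus depended on which controls entered.

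Krt19 (ENSMUSG00000020911, chromosome 11, 100140810 to 100148665, minus strand) encodes keratin 19 of the bile duct cytoskeleton. It measured 30.7, 69.6 and 13.0 CPM across controls 5, 6 and 7, against 42.7, 71.3 and 46.0 CPM in GOX_DOX tumors 1, 2 and 5. Controls 6 and 7 lay at opposite ends of the controls, with control 6 2.27-fold above and control 7 2.36-fold below control 5. Treated over control, the log2 fold change was 0.50 (standard error 0.60). It was positive under every scaling and turned to -0.29 (standard error 0.42) under limma voom with sample quality weights. Leaving out control 5 gave 0.39 (standard error 0.61), and leaving out controls 6 and 7 gave 0.81 (standard error 0.34). Without control 6 alone it was 1.28 (standard error 0.49), and without control 7 alone 0.08 (standard error 0.44).

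Epcam (ENSMUSG00000045394, chromosome 17, 87635979 to 87651129, plus strand), the epithelial adhesion molecule of progenitors and bile ducts, measured 6.67, 4.32 and 4.20 CPM in controls 5, 6 and 7. It measured 8.55, 6.52 and 4.16 CPM in GOX_DOX tumors 1, 2 and 5, so the lowest and the highest library were both treated. Its log2 fold change was 0.33 (standard error 0.38), with 0.62 (standard error 0.38) without control 5 and -0.04 (standard error 0.45) without controls 6 and 7.

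Cd24a (ENSMUSG00000047139, chromosome 10, 43578284 to 43584265, plus strand), a surface glycoprotein used as a liver cancer stem cell marker, measured 17.8, 13.9 and 8.29 CPM across controls 5, 6 and 7, against 11.8, 14.9 and 11.1 CPM in GOX_DOX tumors 1, 2 and 5. The GOX_DOX tumors lay inside the range of the controls. On the log2 scale the difference was -0.08 (standard error 0.34) with TMM, and turned to 0.32 under library totals, or 0.06 under the upper quartile, below the median of all genes under each. It was 0.21 (standard error 0.30) without control 5 and -0.48 (standard error 0.28) without controls 6 and 7. Gm6212 shares 2.75% of its stretches of 50 bases.

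Across the markers, edgeR's quasi-likelihood test gave 0 of 8 with an adjusted p under 0.05, as it did for 0 of 15374 genes (0%). At an unadjusted p under 0.05 it gave Alb, Afp and Gpc3, all lower in GOX_DOX tumors, where 14.6% of all tested genes were lower and 2.87% higher at that level. DESeq2 called Alb alone, 1 of 7 markers with an adjusted p, against 10.5% of genes, and the edgeR exact test also called Alb alone (adjusted p 0.0306), against 7.14% of genes. Without control 5, edgeR called 4 of 8, namely Alb (adjusted p 0.000587), Afp (adjusted p 0.0149) and Gpc3 (adjusted p 0.0285) as lower and Sox9 as higher. In that fit 47.7% of all genes tested were called, so that the share of markers called was near the background. Limma voom with sample quality weights called the same 4 genes, against 60.2% of all genes. Without controls 6 and 7, 0 of 8 were called. H19, Epcam, Krt19 and Cd24a were called in none of these fits, their smallest adjusted p being 0.0767, for Epcam with voom.

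**Figure D2:**
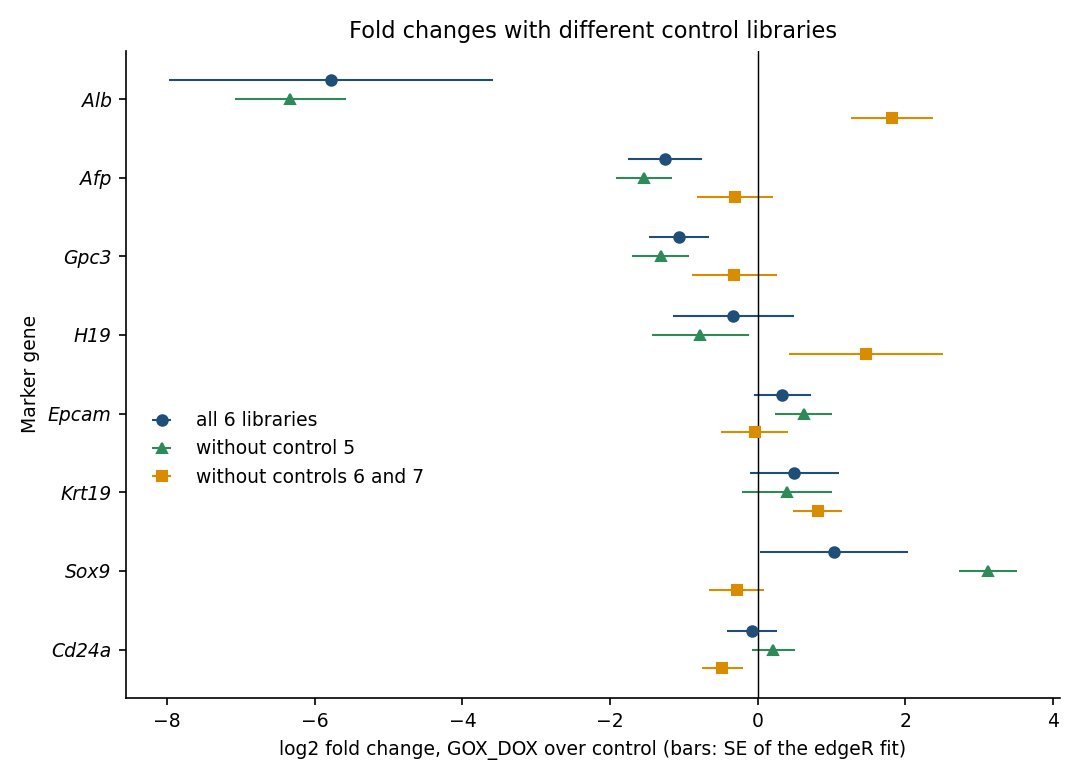
Log2 fold change of the 8 tested markers, GOX_DOX over control (x axis), with bars for the standard error of the edgeR fit, from all 6 libraries (circles), without control 5 (triangles) and without controls 6 and 7 (squares). Alb moved from -5.78 to 1.82 and Sox9 from 1.03 to -0.28 when controls 6 and 7 were left out. Krt19 lay between 0.39 and 0.81 in the fits drawn. It was 1.28 without control 6 alone and 0.08 without control 7 alone, which are not drawn.

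The order of the markers by level was described per kilobase of exon, since transcripts of different length catch different numbers of reads. In control tumors the mean levels were 28807 for Alb, 20.4 for Krt19, 14.1 for Sox9, 5.17 for Cd24a, 2.81 for Afp, 2.31 for Epcam, 0.686 for Gpc3 and 0.575 CPM per kilobase for H19. In GOX_DOX tumors Alb led with 525, followed by Sox9 at 28.9, Krt19 at 28.7, Cd24a at 4.90, Epcam at 2.92, Afp at 1.17, H19 at 0.442 and Gpc3 at 0.323 CPM per kilobase. Igf2 and Dlk1 came last in both groups, at or below 0.0211 CPM per kilobase. In controls the ranges of neighbours overlapped from Krt19 down to Cd24a, between Cd24a, Afp and Epcam, and between Gpc3 and H19. In GOX_DOX tumors the ranges of Sox9 and Krt19 overlapped, as did those of H19 and Gpc3, while Cd24a, Epcam and Afp were each apart from the next in the order. Afp stood above Epcam in controls 6 and 7, at 3.05 against 1.97 and 3.93 against 1.91 CPM per kilobase. It stood below Epcam in control 5 (1.46 against 3.04), as in every GOX_DOX tumor.

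The ratio of each marker to Alb within a library does not depend on the scaling between libraries. On the log2 scale, with 0.5 added to both counts, Sox9 over Alb was -1.26, -12.0 and -13.6 across controls 5, 6 and 7, against -3.75, -3.30 and -2.89 in GOX_DOX tumors 1, 2 and 5. Control 5 had the highest Sox9 share, with 2.40 Alb reads for each Sox9 read, against 4204 and 12286 in controls 6 and 7 and 7.39 to 13.5 in the GOX_DOX tumors. The mean ratios of all 7 markers were higher in GOX_DOX tumors than in controls, by 2.49 for Afp, 2.71 for Gpc3, 3.36 for H19, 3.69 for Cd24a, 4.02 for Epcam, 4.49 for Krt19 and 5.65 for Sox9. None of these differences exceeded the spread between libraries, with two-sided exact permutation p of 0.3 for H19 and Krt19 and 0.4 for the other 5, and 0.4 for each after adjustment over the 7. All 7 ratios share the Alb counts, and Alb had a log2 fold change of -5.78, while no other tested marker was below -1.26. The common sign of the ratios and their 7 tests are thus not separate results. The SD among controls was between 3.40 and 6.71, against 0.43 to 1.39 among GOX_DOX tumors. Against control 5 alone, all 7 ratios were lower in GOX_DOX tumors, by values from -0.56 for H19 to -2.20 for Cd24a, control 5 being the library with the least Alb.

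**Figure D3:**
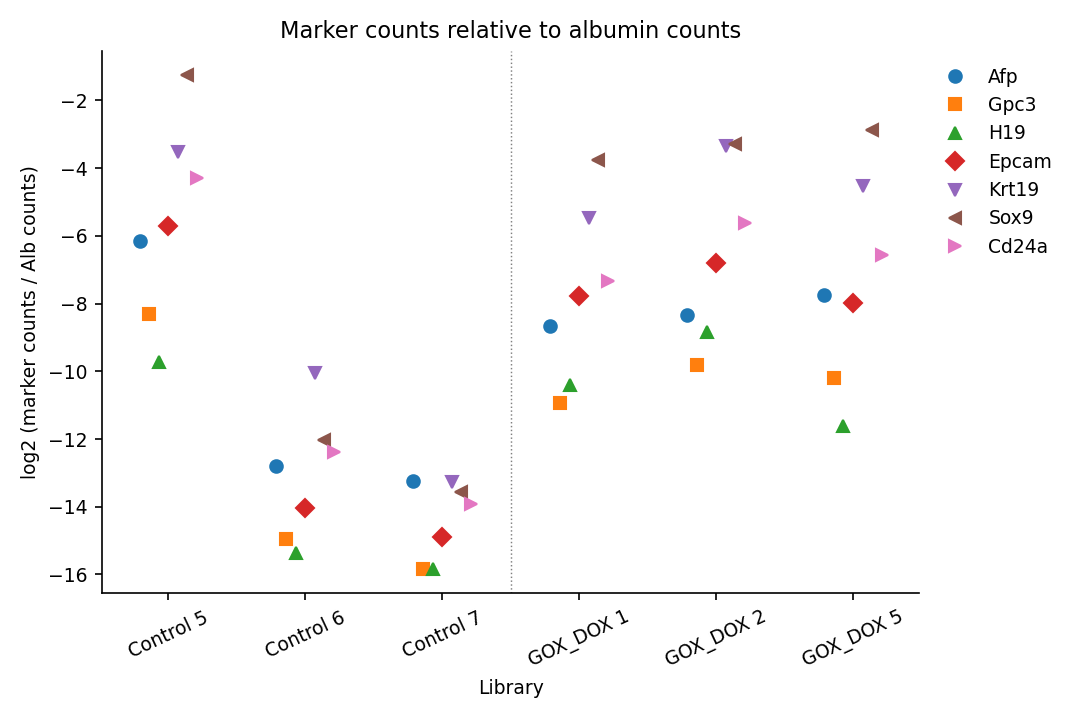
Log2 ratio of marker counts to Alb counts (y axis) in each library (x axis), with a symbol for each of the 7 markers, controls on the left of the dotted line and GOX_DOX tumors on the right. Controls 6 and 7 lie between -10.0 and -15.8, and control 5 lies with the GOX_DOX tumors, between -1.26 and -11.6.

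Mature hepatocyte genes followed Alb. All 20 tested, Alb included, were lower in GOX_DOX tumors, with a median log2 fold change of -5.73, and 19 had an unadjusted p under 0.05 with edgeR, where 14.6% of all genes were lower at that level. DESeq2 called all 20, against 10.5% of all genes in either direction. The largest were Tat, a tyrosine-degrading enzyme (-7.19, standard error 2.32), Hpd of the same pathway (-7.00, standard error 2.11) and Cps1 of the urea cycle (-6.82, standard error 2.14). Their groups overlapped in 20 of 20, and the median was 1.91 without controls 6 and 7. The summed level of the list ran from 762 to 227364 CPM in controls and from 1753 to 3828 CPM in GOX_DOX tumors. Its part in the differences of Alb, Afp, Gpc3 and Sox9 was not tested.

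Among the factors known to switch fetal liver genes, 1 of 10 tested was higher and 9 were lower, with a median of -2.60. Hnf4a, the main hepatocyte nuclear receptor, measured 4.52, 717 and 1114 CPM across controls 5, 6 and 7, against 19.2, 6.57 and 11.3 CPM in GOX_DOX tumors 1, 2 and 5. Nr5a2, an activator of Afp, and Foxa2 had log2 fold changes of -5.15 and -5.05 (standard errors 1.48 and 1.46). All 3 thus showed the split of Alb. The Afp repressors Zbtb20, Zhx2 and Zfhx3, which the naming rule did not select and which were looked up after values had been seen, are given beside them. Zbtb20 measured 165, 549 and 804 CPM in the controls, against 165, 190 and 232 CPM in the GOX_DOX tumors, and Zhx2 34.6, 26.5 and 34.4 CPM and 28.4, 26.2 and 20.1 CPM. Zfhx3, the 1 gene of the list that was higher (log2 fold change 0.48, standard error 0.30), measured 122, 78.9 and 64.9 CPM in the controls, against 119, 110 and 142 CPM in the GOX_DOX tumors. The median of the list was 0.29 without controls 6 and 7.

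Oncofetal RNA-binding and growth factors had 5 of 8 tested genes higher and 3 lower, with a median of 0.94. Of these, 0 were called by edgeR or DESeq2, which set 3 aside as NA. With edgeR 1 had an unadjusted p under 0.05, as lower, where 14.6% of all genes were lower at that level. Hmga2, a chromatin protein of embryonic tissue, measured 1817, 123 and 15.1 CPM across controls 5, 6 and 7, against 1679, 1011 and 1499 CPM in GOX_DOX tumors 1, 2 and 5. Its relative Hmga1 and the growth regulator Myc had log2 fold changes of 1.06 and 1.12 (standard errors 1.01 and 1.05). Control 5 lay with the treated tumors for all 3, as it did for Sox9. The reprogramming genes Lin28a, Lin28b, Igf2bp1 and Sall4 were too low to test, at no more than 0.490 CPM. Without controls 6 and 7 the median was -0.31. Without control 5 it was 3.12, with 5 of 8 called as higher, in a fit that called 47.7% of all genes.

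The progenitor and cholangiocyte list, which holds Epcam, Krt19, Sox9 and Cd24a, had 12 of 17 tested genes higher and 5 lower, with a median of 0.42. Of these, 0 were called by edgeR or by DESeq2, which set 5 aside as NA, and 0 had an unadjusted p under 0.05 with edgeR. Spp1, encoding osteopontin, measured 6838, 463 and 178 CPM across controls 5, 6 and 7, against 6936, 4589 and 5616 CPM in GOX_DOX tumors 1, 2 and 5. Cd44, a hyaluronan receptor, had a log2 fold change of 1.11 (standard error 1.14). Among those not tested was Tff2, with 9 reads in all. Lgr5, a stem cell receptor looked up after values had been seen, also did not pass the filter on low counts. It measured 0.307, 6.53 and 9.25 CPM across controls 5, 6 and 7, against 0.297, 0.441 and 0.416 CPM in GOX_DOX tumors 1, 2 and 5, which was the split of Alb. Of the bile duct markers Krt7 measured at most 1.88 CPM and Cftr at most 0.834 CPM, with Cftr at 0 in control 7. The median was -0.24 without controls 6 and 7 and 0.67 without control 5.

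The protein partners of the fetal markers gave mixed signs. Of 12 tested IGF2 receptors and binding proteins 6 were higher and 6 lower, and the median of -0.39 turned to 0.09 with library totals and to 0.06 without controls 6 and 7. Igfbp2, a secreted binding protein of fetal and adult hepatocytes, measured 1.89, 243 and 400 CPM in the controls, against 4.99, 11.1 and 3.59 CPM in the GOX_DOX tumors. Igfbp1 (-2.54, standard error 1.01) and the insulin receptor gene Insr (-1.90, standard error 0.63) had the same sign. Of 10 tested glypicans and heparan sulfate genes 6 were higher and 4 lower, with a median of 0.30. Besides Gpc3, the lower genes were Notum, a secreted Wnt deacylase that binds glypicans (-3.48, standard error 1.15), Gpc4 (-3.33, standard error 0.99) and Ndst1, a sulfating enzyme (-1.35, standard error 0.40). Gpc4 measured 4.96, 60.3 and 96.4 CPM in the controls, against 6.53, 5.24 and 4.32 CPM in the GOX_DOX tumors, a wider split than that of Gpc3.

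Among Notch genes around Dlk1, 5 of 10 tested were higher and 5 lower, and the median of -0.14 turned to 0.32 with library totals. Dll4, an endothelial Notch ligand, measured 6.93, 9.41 and 7.86 CPM in the controls, against 4.60, 3.53 and 3.80 CPM in the GOX_DOX tumors without overlap (-1.02, standard error 0.28). The targets Hey1 and Heyl had values of -0.80 and -0.77 (standard errors 0.54 and 0.51). Epithelial junction genes beside Epcam had 2 of 9 tested higher and 7 lower, and their median of -0.16 turned to 0.35 with library totals. Ocln (occludin) measured 1.71, 48.6 and 47.1 CPM in the controls, against 1.58, 1.13 and 0.832 CPM in the GOX_DOX tumors without overlap (-4.77, standard error 1.21). The claudin genes Cldn3 (-4.67, standard error 1.46) and Cldn1 (-3.12, standard error 1.15) had the same sign.

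**Figure D4:**
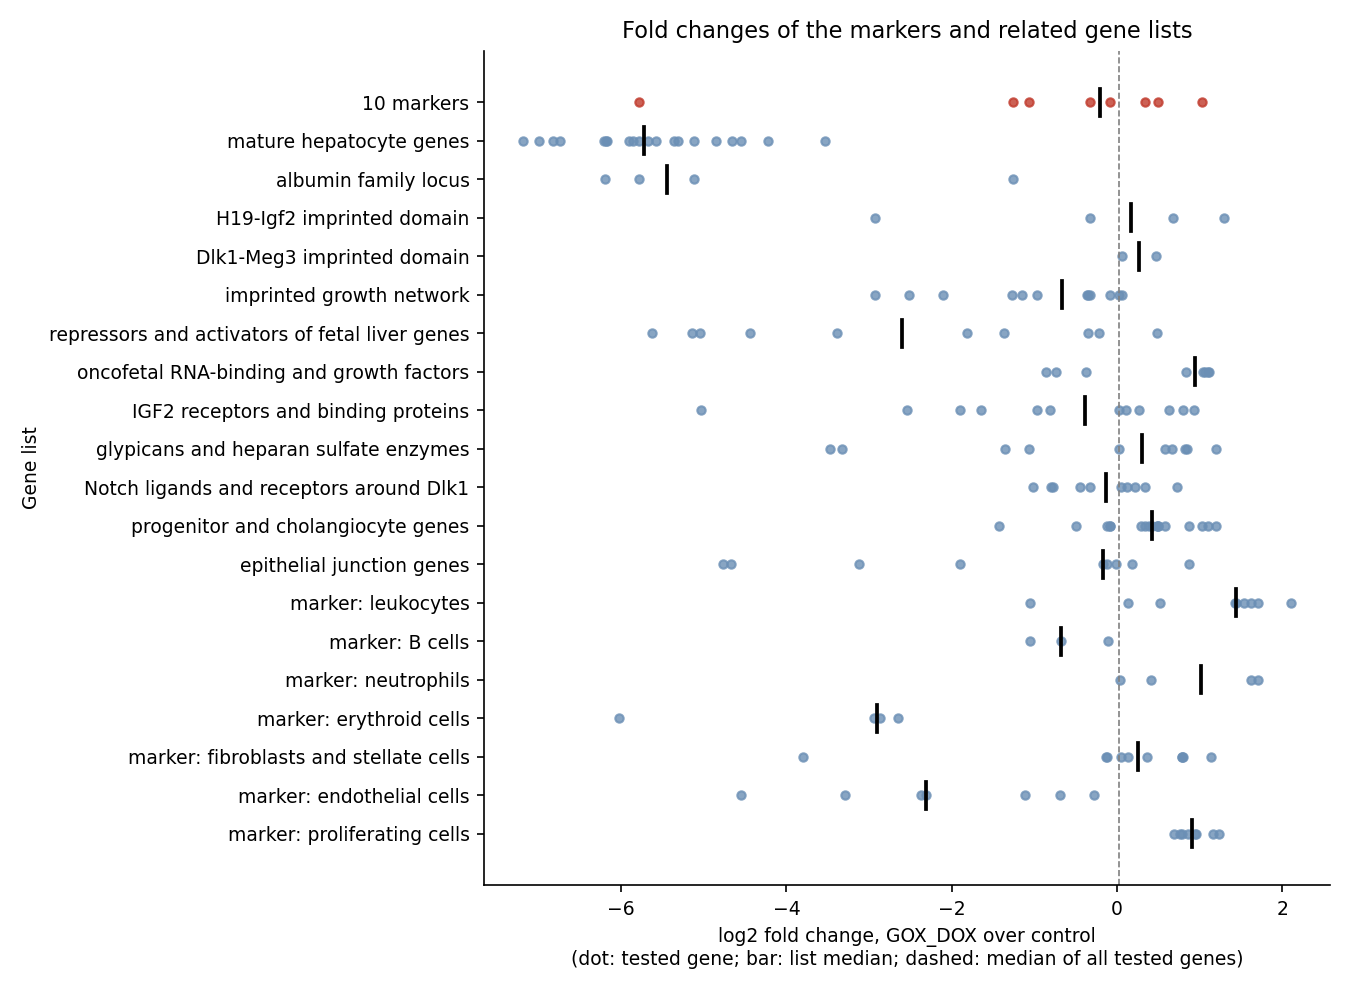
Log2 fold change, GOX_DOX over control (x axis), of every tested gene (dots) in each gene list (y axis), with the list median as a bar and the median of all tested genes, 0.02, as a dashed line. Mature hepatocyte genes lie at a median of -5.73, while the 8 tested markers spread from -5.78 for Alb to 1.03 for Sox9.

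Markers of other cell types also differed between libraries. Leukocyte markers had 8 of 9 tested genes higher, with a median of 1.44 that was 0.90 without controls 6 and 7, and their summed level ran from 429 to 1029 CPM in controls and from 964 to 2657 CPM in GOX_DOX tumors. The largest were Itgam (2.11, standard error 0.51), S100a8 (1.71, standard error 0.93) and S100a9 (1.62, standard error 0.83), and Ms4a1 was too low to test. Proliferation genes had 8 of 8 higher with a median of 0.90, which was -0.14 without controls 6 and 7, and sums from 86.4 to 1091 CPM in controls and 787 to 1009 CPM in GOX_DOX tumors, with Cdk1 at 1.24, Birc5 at 1.16 and Top2a at 0.96. Fibroblast and stellate genes had 7 of 10 higher and a median of 0.25, which turned to -0.21 without controls 6 and 7, with sums of 1009 to 5804 CPM and 2217 to 6869 CPM, while Lrat stood at -3.80, Acta2 at 1.14 and Col1a1 at 0.79. Endothelial genes were lower in 7 of 7, with a median of -2.31 that was -0.35 without controls 6 and 7, sums of 118 to 432 CPM and 89.6 to 116 CPM, and Clec4g at -4.55, Stab2 at -3.29 and Tek at -2.37. Erythroid genes were lower in 4 of 4, with a median of -2.90 that turned to 1.02 without controls 6 and 7, sums of 13.2 to 425 CPM and 13.8 to 42.1 CPM, Alas2 at -6.02, Hba-a1 at -2.94 and Hbb-bs at -2.87, and Hba-a2 at 0 in 4 libraries. Neutrophil genes were higher in 4 of 4 (median 1.02, and 0.74 without controls 6 and 7, Csf3r 0.41, sums of 7.96 to 22.7 CPM and 15.6 to 54.5 CPM). B cell genes were lower in 3 of 3 (median -0.68, Cd79a -1.06, Pax5 -0.68, Cd79b -0.11), a median that turned to 0.08 with library totals and to 0.89 without controls 6 and 7, with sums of 2.28 to 7.72 CPM and 2.06 to 3.21 CPM. The part of these lists in the levels of the markers was not tested.

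Genes whose log2 CPM tracked each marker over the 6 libraries were sought among 12720 tested genes with mean log2 CPM of at least 1. Markers in that set were left out of the ranking. This is a description in which all points share the same libraries. For Alb the closest were Gjb1, the connexin of hepatocytes, and Slco1b2, a hepatocyte uptake transporter (Pearson's r 0.99997 and 0.99988), and 2780 genes had an r over 0.9. For Sox9 they were Tead4 and Asns (r 0.9997 and 0.999), with 2551 genes over 0.9, and for Gpc3 Tob2 and Exoc3l2 (r 0.998 for each), with 2355 genes. Afp came next with Zfhx2 and Rbpms2 (r 0.996 and 0.995) and 988 genes. Far fewer genes followed the other markers, with 86 for Cd24a (nearest Fam171b and Vash1, r 0.989 and 0.986), 80 for Krt19 (Fndc10 and Gsn, r 0.989 and 0.986), 33 for H19 (Otub2 and 4931414P19Rik, r 0.978 and 0.955) and 13 for Epcam (Wars2 and Trim32, r 0.951 and 0.941). In TMM-scaled CPM, Alb, Sox9, Gpc3 and Afp each lay along the main split, between controls 6 and 7 and the rest. As a share of all counts Gpc3 did not, at 0.000136%, 0.000173% and 0.000122% in controls 5, 6 and 7. Its r values therefore depend on the TMM factors.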

How the data were processed

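Tumor RNA was sequenced from 6 libraries, 3 per group, made with the KAPA mRNA HyperPrep kit. The authors deposited raw counts per gene, and signal values that are the same counts over per-library size factors of 0.532 to 1.32, with 100% of values giving whole reads within 0.01 reads. The study's methods name TopHat and HTSeq, whereas the submitters' processing notes name Trimmomatic 0.38, HISAT2 2.1.0 and featureCounts 2.0.0, and the build, the annotation and the use of strand are not given in the sources used here. Nothing states that tumors were pooled. Positions are from GENCODE M21 on GRCm38, which held all 55536 identifiers, and promoters from RefSeq GRCm38.p6.

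Counts were analysed with edgeR 4.0.16 (R 4.3.3). Genes passing the default filter on low counts were scaled by TMM. The quasi-likelihood test compared the groups with no covariate, and p-values were adjusted by Benjamini-Hochberg over all genes tested, at a threshold of 0.05. Log2 CPM used a prior count of 2. Standard errors were derived from the F statistic. Single values were compared with two-sided exact permutation tests over libraries. The study gives n = 3 for the tumors of its transcriptome. Nothing in the labels beyond the numbers says that libraries of a group came from separate animals. The p-values thus measure the spread between these samples, which may be technical. Alternatives were DESeq2 1.42.0, the edgeR exact test, limma 3.58.1 (voom with quality weights), other scalings and filters, and each library left out. Leaving out controls 6 and 7 together and the test on reads recovered from the size-factor table were added after the data had been seen. Figures were drawn with matplotlib 3.10.9. Scripts were tested on simulated data.

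The markers and gene lists were chosen with earlier results of these data known. Genes named are all 10 markers, the 3 tested genes of each list with the largest absolute log2 fold change, every gene of the albumin locus and the imprinted domains, and the 2 genes most alike in pattern to each tested marker with a mean log2 CPM of at least 1. A gene that this rule selects is not shown.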

Additional observations from a re-analysis of the deposited data

How the results depend on the processing

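The number of markers with an adjusted p under 0.05 was 0 with edgeR, 1 with DESeq2 and the edgeR exact test, and 4 with limma voom with quality weights. Over all genes these counts were 0, 1516, 1098 and 9254. Leaving out each library in turn gave 0 to 4 markers and 0 to 7745 genes, the upper values without control 5, and every other such fit gave 0. Signs turned as follows. With library totals H19 was at 0.42 and Cd24a at 0.32, and Cd24a was at 0.0637 with the upper quartile. Krt19 was at -0.29 with voom. Leaving out each library, H19 ranged from -0.78 to 0.14 (positive without control 7 and without GOX_DOX tumor 5) and Cd24a from -0.33 to 0.21 (positive without control 5 and without GOX_DOX tumor 5). Without controls 6 and 7, Alb was at 1.82, H19 at 1.47, Epcam at -0.04 and Sox9 at -0.28, and the ratios to Alb were -2.08 for Afp, -2.02 for Gpc3, -0.56 for H19, -1.81 for Epcam, -0.93 for Krt19, -2.05 for Sox9 and -2.20 for Cd24a. That fit rests on 1 control, which is assumed to vary like the GOX_DOX tumors. The cause of these changes was not tested. Of the other log2 fold changes of single markers, 98 kept their sign without crossing the threshold and 10 passed it. The 98 include Sox9 with DESeq2, which had no adjusted p. The other 56 ratios to Alb kept their sign, and their permutation test cannot reach 0.05 with so few libraries. The whole reads recovered from the size-factor table equalled the raw counts in 100% of values. Their fit thus had to repeat the main one, with 0 markers and 0 genes called, and is not a separate check.

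No paired analysis was run, because the labels give no pairing between the groups. Replicate number 5 occurs in both, but nothing says that it marks a pair. Depth limits H19 and Gpc3, with 115 and 124 reads over all libraries, and Igf2 and Dlk1, with 5 and 2, could not be tested.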
